A study of Mus musculus with 6 samples.

Results

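Reactive gliosis genes were followed in mouse retina: 34 genes of reactive Müller glia and astrocytes and of the Stat3 cytokine path, chosen by symbol. All 34 were found among the 28627 genes of the deposited table, and 33 of them were among the 16681 genes that passed the expression filter. The study sequenced poly-A RNA of 6 whole retina samples from pups at postnatal day 15, all of them taken through oxygen-induced retinopathy, so that both genotypes share that treatment and no untreated retina is in the comparison. Oxygen-induced retinopathy is a mouse model of retinopathy of prematurity: excess oxygen prunes the capillaries of the young retina, and the shortage of oxygen that follows in normal air drives abnormal vessel growth. The 2 groups were 3 samples of Emcn+/+ pups and 3 of Emcn-/- littermates, which lack endomucin, a sialomucin of the endothelial surface. How the Emcn-/- allele was made, the strain, and whether a sample is 1 animal or a pool were not stated in the labels, and every p-value therefore reflects how much these samples scattered, which may be technical.

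Gliosis is the response of astrocytes and Müller glia, the radial glial cells that span the retina, to injury, hypoxia or inflammation. Cytokines of the interleukin 6 family (Lif, Cntf, Osm and others) bind receptors that share the subunit gp130, encoded by Il6st. Janus kinases at the receptor then phosphorylate Stat3, which enters the nucleus and switches on genes such as Gfap and Socs3, and the Socs3 protein in turn damps the receptor. In injured retina Müller glia are known to raise the filament protein Gfap and to secrete Lif, which induces Fgf2 in support of photoreceptors.

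Since Stat factors bind DNA at paired letters of the form TTCNNNGAA, which read the same on both strands, that string was searched in the RefSeq promoters (GRCm38.p6) of the genes, each running from 250 bases before to 50 after a transcript start. Promoters were matched for 29 of the 34 genes, and 5 of these 29 (17.2%) held the letters, against 9.55% of the 27025 genes in the promoter table. Those of Gfap (chr11:102897151-102897450, minus strand), Socs3 (chr11:117969317-117969616, minus strand), Steap4 (chr5:7960222-7960521, plus strand) and Emp1 (chr6:135362681-135362980, plus strand) are shown, the first pair as textbook Stat3 targets and the second as the other matched genes with the widest range over the 6 libraries; capitals mark the letters, and every sequence reads 5′ to 3′ on the gene's strand.
Gfap: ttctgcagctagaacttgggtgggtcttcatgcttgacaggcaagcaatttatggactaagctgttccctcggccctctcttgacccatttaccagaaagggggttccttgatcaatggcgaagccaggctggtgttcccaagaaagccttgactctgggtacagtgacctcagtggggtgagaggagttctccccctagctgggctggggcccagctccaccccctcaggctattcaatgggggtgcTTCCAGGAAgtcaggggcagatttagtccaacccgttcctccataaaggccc
Socs3: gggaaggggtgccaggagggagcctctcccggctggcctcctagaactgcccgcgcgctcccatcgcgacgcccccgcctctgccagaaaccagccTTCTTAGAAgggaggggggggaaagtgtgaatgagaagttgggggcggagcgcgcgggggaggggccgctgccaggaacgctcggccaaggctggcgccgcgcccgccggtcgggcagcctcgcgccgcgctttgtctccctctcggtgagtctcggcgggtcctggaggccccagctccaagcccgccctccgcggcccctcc
Steap4: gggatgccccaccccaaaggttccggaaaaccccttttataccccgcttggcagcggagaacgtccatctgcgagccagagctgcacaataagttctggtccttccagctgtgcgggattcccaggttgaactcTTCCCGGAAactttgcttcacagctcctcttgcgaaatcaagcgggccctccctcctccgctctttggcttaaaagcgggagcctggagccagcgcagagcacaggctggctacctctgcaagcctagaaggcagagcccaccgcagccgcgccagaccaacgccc
Emp1: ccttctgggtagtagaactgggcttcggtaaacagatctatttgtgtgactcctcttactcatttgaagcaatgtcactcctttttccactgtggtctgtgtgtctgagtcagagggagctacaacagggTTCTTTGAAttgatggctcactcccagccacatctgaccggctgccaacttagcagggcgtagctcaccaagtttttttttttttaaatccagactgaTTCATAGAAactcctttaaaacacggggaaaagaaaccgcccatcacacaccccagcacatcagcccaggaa
The string began 2 bases before the start in Gfap, 154 before it in Socs3 and 116 before it in Steap4, and Emp1 held it at both 120 and 22 bases before the start. Sphk1 was the fifth gene with the letters. A gene counted if any of its promoters held them, so a gene with more promoters had more chances to match. The 29 genes had 42 promoters, against 32851 promoters for the 27025 genes, and 8.3% of those 32851 held the letters. A match is a description of the sequence and not a binding site, and the absence of these letters in a window says nothing about Stat3 at that gene.

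The libraries held 14865868 to 17087621 reads assigned to genes, and 3 reads, the limit that a count of 0 allows, corresponded to 2.77 to 3.28 normalised reads (counting error only). In the order of replicates 1, 2 and 3, which is kept throughout, Emcn had 90, 87 and 92 reads in Emcn+/+ retinas and 2, 1 and 5 in Emcn-/- retinas. Tissue identity was checked with 10 markers of retinal ganglion cells, which summed to 16501 to 20958 normalised reads, and with the Müller glia enzyme Glul at 22486 to 37744, while the astrocyte transcription factor Pax2 was at only 17.6 to 34.1. Emcn+/+ replicate 3 stood apart: it alone had many Xist reads (17641, against 1 to 5 elsewhere) and no Ddx3y reads (1143 to 1413 normalised reads elsewhere). That is the read pattern of a female sample, and the other 5 libraries had that of males, while the labels give no sex. The part of sex in the spread or in the genotype differences was not tested. The summed interferon-response genes of Emcn+/+ replicate 3 reached 10438 normalised reads, against 2015 to 2356 in the other 5 libraries. Emcn+/+ replicate 1 alone held lens transcripts, 52347 summed normalised reads against 39.3 to 225. The replicate 3 samples of both genotypes carry the titles 186 and 188, whereas the other 4 are titled 144 to 148. The labels do not say what the 2 number series mean, and with 1 such library per genotype each result that rests on them is given with and without them.

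Loss of Emcn was accompanied by no called difference in any reactive gliosis gene. limma on log2(normalised reads + 1), adjusted over the 16681 tested genes and called at an adjusted p under 0.05, called 0 of the 33 tested genes, against 0.00599% of all genes, which is Emcn alone. On the recovered reads edgeR also called 0 of them, against 0.00599% of all genes, and had 4 of 33 (12.1%) at an unadjusted p under 0.05, against 8.34%. DESeq2 called 0 as well, against 82 genes or 0.492% of all. However, it gave an adjusted p to only 11 of the 33, and to only 6972 of the 16681 tested genes. It had 3 of 33 (9.09%) at an unadjusted p under 0.05, against 5.75%. At an unadjusted limma p under 0.05 there were 5 of 33 (15.2%; Lifr, Cntfr, Ccn1, Ccn2 and Ptx3), against 8.14% of all tested genes. Of the 33 differences, Emcn-/- minus Emcn+/+, 16 were positive and 17 negative, with a median of -0.0025 on the log2 scale, beside 52% positive and a median of 0.0075 over all tested genes. The median standard error of these differences was 0.28 on the log2 scale.

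The larger feature of these genes was the spread among retinas of 1 genotype. The median within-genotype SD of the 33 genes was 0.44 on the log2 scale, against 0.14 for all tested genes. It was 0.50 in Emcn+/+ (all genes 0.14) and 0.27 in Emcn-/- (all genes 0.12), and 27 of the 33 had the larger SD in Emcn+/+, as had 59.6% of all tested genes. The SD of 29 genes lay above the median of all tested genes, that of 15 in the top 10% and that of 11 in the top 5%. For 25 of the 33 the SD within genotype exceeded the size of the difference between genotypes. The same count was not made over all tested genes, so it is not read as a trait of these genes.

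In both genotypes it was replicate 3 that was high. It had the highest value of its genotype in both genotypes for 26 of 33 genes (78.8%), against 18.6% of all tested genes. For 21 genes (63.6%, against 12.8% of all tested genes) both replicate 3 libraries lay above all 4 others. Emcn+/+ replicate 3 was the highest of the 6 libraries for 21 genes, against 17.7% of all tested genes. Emcn-/- replicate 3 was the highest for 6 of the 33, a share close to its 17.9% of all tested genes. The lowest library was Emcn+/+ replicate 1 or 2 for 23 genes, against 38.9% of all tested genes. Replicate 3 minus the mean of the other 2 libraries had a median over the 33 genes of 0.84 on the log2 scale in Emcn+/+ and of 0.47 in Emcn-/-, where the medians of all tested genes were 0.01 and 0.00. This height was larger in Emcn+/+ for 29 of 33 genes (50.5% of all tested genes), a difference between single libraries for which no test exists. In whole retina, more reactive cells and more RNA per cell cannot be told apart.

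**Figure D1:**
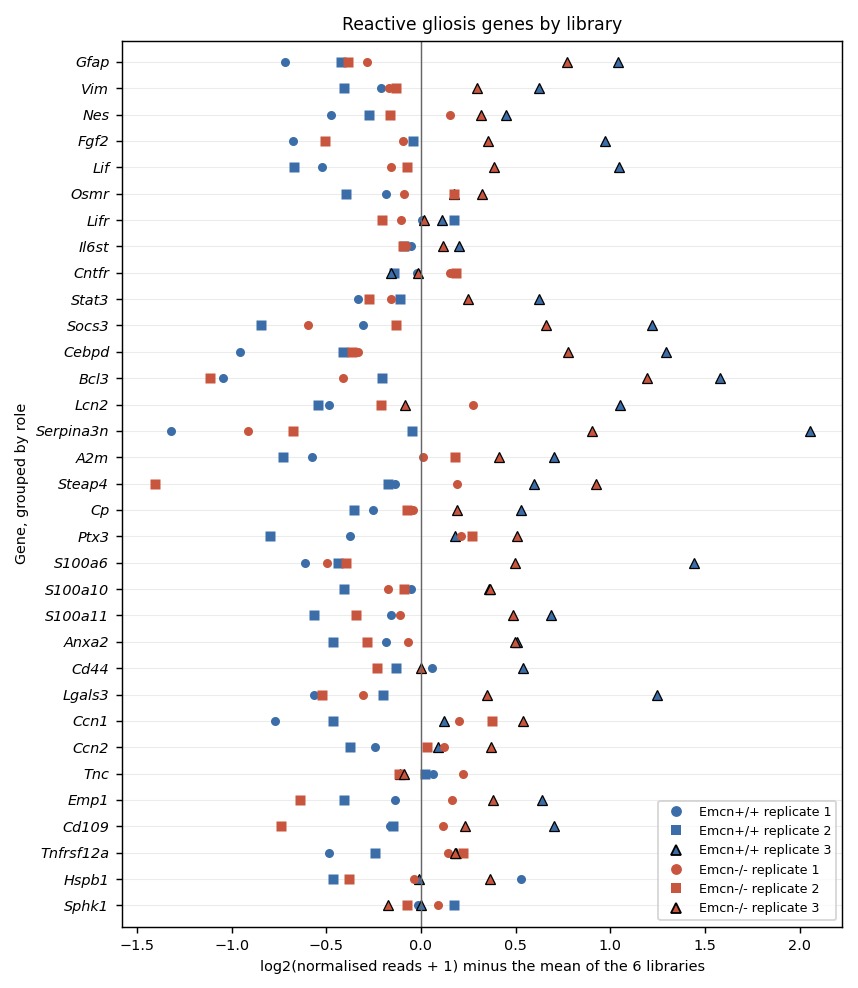
Each row is 1 of the 33 tested genes, grouped by role, and the horizontal axis gives log2(normalised reads + 1) minus the mean of the 6 libraries. Blue marks Emcn+/+ and red Emcn-/- (circle replicate 1, square replicate 2, outlined triangle replicate 3); for 21 genes both triangles lie to the right of the 4 other points, while Lifr, Cntfr, Tnc and Sphk1 show little spread.

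Of the 2 ligands, Lif, the gp130 cytokine released by injured glia, was scarce, at 10.4, 9.27 and 32.8 normalised reads in Emcn+/+ and 13.6, 14.5 and 20.3 in Emcn-/-. Fgf2, a growth factor made by Müller glia, was at 850.4, 1321 and 2670.1 in Emcn+/+ and at 1275, 957 and 1740.2 in Emcn-/-. Both ligands were highest in the 2 replicate 3 libraries, and the genotypes overlapped. Their differences were 0.10 ± 0.47 (SE) for Lif and -0.17 ± 0.37 for Fgf2 (adjusted p = 0.969 and 0.923). Of the exonic bases of Fgf2, 9.4% are shared with Nudt6 on the opposite strand, and as the strand of the reads is not known, a small part of its reads may be those of Nudt6, which itself averaged 26.0 normalised reads.

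The 4 receptor genes had a smaller median within-genotype SD, 0.12, and no more than 1.65-fold between the highest and the lowest library. Il6st, the shared subunit gp130, was at 1999, 1952 and 2385 normalised reads in Emcn+/+ and at 1963, 1945 and 2250.3 in Emcn-/-, with both replicate 3 libraries on top by a small margin. Lifr, the Lif receptor chain, was at 1656, 1863 and 1781 in Emcn+/+ and at 1532, 1427 and 1666 in Emcn-/-. The Lifr ranges overlapped only between 1656 and 1666, and the difference of -0.20 ± 0.07 on the log2 scale (95% interval -0.36 to -0.03) did not pass the adjusted threshold (adjusted p = 0.542). Cntfr, the chain that binds ciliary neurotrophic factor, was at 471, 433 and 429 in Emcn+/+ and at 532, 545 and 474 in Emcn-/-. All 3 Emcn-/- libraries lay above the Emcn+/+ libraries, by 0.22 ± 0.08 (95% interval 0.03 to 0.40, adjusted p = 0.561). Cntfr and Lifr thus had differences of opposite sign and similar size. Osmr, the oncostatin M receptor, was at 235, 203 and 302 in Emcn+/+ and 251, 303 and 335 in Emcn-/-, a difference of 0.27 ± 0.16 (adjusted p = 0.688) with overlapping groups. Replicate 3 was the highest of each genotype in Osmr too.

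Downstream of the receptors, Stat3 and the 3 regulators Socs3, Cebpd and Bcl3 held the widest spread of the roles, with a median SD of 0.92. Stat3 itself was at 1366, 1598 and 2655 normalised reads in Emcn+/+ and at 1545, 1426 and 2049.8 in Emcn-/-. Socs3, the feedback inhibitor, was at 79.9, 54.7 and 233 in Emcn+/+ and at 65.2, 90.2 and 157 in Emcn-/-. Cebpd, a transcription factor of the acute-phase response, was at 262, 383 and 1250.4 in Emcn+/+ and at 404, 395 and 873 in Emcn-/-. In each of these genes both replicate 3 libraries exceeded the other 4, and the range reached 4.25-fold in Socs3 and 4.77-fold in Cebpd. Bcl3, an atypical IκB protein that acts as a cofactor of NF-κB, was at 22.8, 41.7 and 146 in Emcn+/+ and at 36.03, 21.8 and 112 in Emcn-/-, a 6.72-fold range. The 4 genotype differences, -0.12 ± 0.23 for Stat3, -0.05 ± 0.50 for Socs3, 0.05 ± 0.53 for Cebpd and -0.22 ± 0.72 for Bcl3, were each smaller than their standard error (adjusted p from 0.909 to 0.984). Replicate 3 exceeded its own genotype by a median over these 4 genes of 1.89 on the log2 scale in Emcn+/+ and 1.08 in Emcn-/-. Of the Cebpd exons, 15.0% are shared with Spidr on the opposite strand, whose mean was 144 normalised reads, and 6.5% of the Bcl3 exons are shared with the antisense gene Gm16175.

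Among the intermediate filaments, Gfap, the classical mark of gliosis in Müller cells, was at 999, 1223 and 3372 normalised reads in Emcn+/+ and at 1347, 1258 and 2803 in Emcn-/-. Vim, the filament of all Müller glia, was at 3823, 3340.4 and 6812 in Emcn+/+ and at 3939.5, 4035 and 5444 in Emcn-/-. Nes, a filament of progenitors and reactive glia, was at 306, 352 and 582 in Emcn+/+ and at 474, 381 and 531 in Emcn-/-. The 3 filaments shared 1 pattern: replicate 3 of both genotypes was at the top, and the other 4 libraries lay close together in Gfap (999 to 1347) and Vim (3340.4 to 4035). The genotype means of Gfap were 1865 ± 1311 and 1803 ± 867 normalised reads (SD, n = 3 each), and the difference was 0.07 ± 0.44 on the log2 scale, with a 95% interval of -0.94 to 1.08 (adjusted p = 0.974). The differences of Vim (-0.00 ± 0.24, adjusted p = 0.998) and Nes (0.20 ± 0.22, adjusted p = 0.822) were also within the spread.

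**Figure D2:**
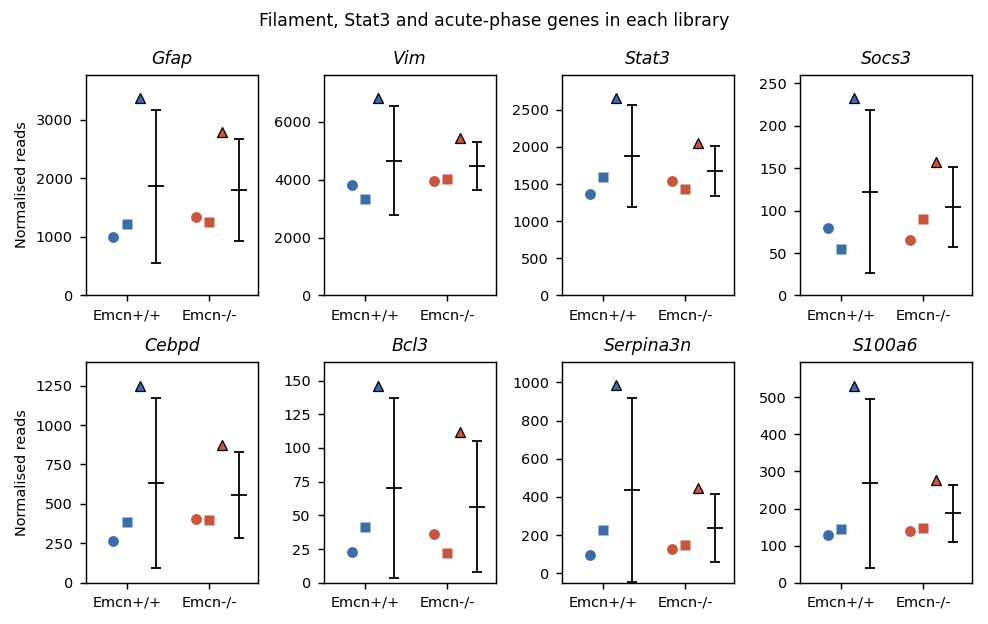
Normalised reads (vertical axis) of 8 genes in each library, with Emcn+/+ in blue and Emcn-/- in red; circles, squares and outlined triangles are replicates 1, 2 and 3, and black bars give the mean ± SD of 3 libraries. In every panel both triangles are above the 4 other points, as for Gfap with 3372 and 2803 against 999 to 1347, and the bars of the 2 genotypes overlap.

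Among secreted and acute-phase products, Serpina3n, a serine protease inhibitor of reactive astrocytes, had the largest range of all the genes, 10.5-fold. It was at 94.4, 229.9 and 988 normalised reads in Emcn+/+ and at 126, 148 and 445 in Emcn-/-, a difference of -0.46 ± 0.77 (adjusted p = 0.896). Its SD within genotype was larger than that of 99.7% of tested genes. Serpina3n lies in a cluster of close paralogs among which reads may have been split, so its level is uncertain. Lcn2, the iron-carrier-binding lipocalin, was at 83.0, 79.7 and 242 in Emcn+/+ but at 141, 100.6 and 110.0 in Emcn-/-, so that only the Emcn+/+ replicate 3 library was high. Neutrophils are another source of Lcn2, and the 6 neutrophil markers found in the table, none of which passed the expression filter, summed to 6.22, 5.56 and 2.18 in Emcn+/+ and to 2.92, 8.3 and 2.77 in Emcn-/-. Cp, the ferroxidase ceruloplasmin, was at 2831, 2642 and 4865 in Emcn+/+ and at 3282, 3207 and 3857 in Emcn-/-. Steap4, a metalloreductase, was low and irregular, at 11.4, 11.1 and 19.7 in Emcn+/+ and at 14.6, 4.15 and 24.95 in Emcn-/-. For Cp, Steap4 and Lcn2 the genotypes overlapped and the adjusted p lay between 0.945 and 0.992. Aspg, an asparaginase used as a mark of reactive astrocytes, had 0 to 5 reads per library, at or near the limit that a count of 0 allows, so it was not tested and no fold is given.

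Ptx3 and A2m had the 2 largest positive differences among the secreted proteins, though neither was called. Ptx3, a soluble pattern-recognition protein, was at 30.1, 22.2 and 44.8 normalised reads in Emcn+/+ and at 45.8, 47.7 and 56.4 in Emcn-/-. A2m, a protease inhibitor of plasma and glia, was at 551, 496 and 1337 in Emcn+/+ and at 828, 931 and 1096 in Emcn-/-. Ptx3 had no overlap between the genotypes, whereas A2m overlapped only because Emcn+/+ replicate 3 had the highest value of all. The differences were 0.66 ± 0.28 (adjusted p = 0.599) and 0.40 ± 0.32 (adjusted p = 0.753).

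The calcium-binding S100 proteins and annexin A2, the partner of S100a10 at the cell membrane, all had both replicate 3 libraries on top. S100a6 was at 128, 144 and 532 normalised reads in Emcn+/+ and at 138, 148 and 276 in Emcn-/-, a 4.17-fold range. S100a11 was at 137, 103 and 247 in Emcn+/+ and at 141, 120.3 and 214 in Emcn-/-. S100a10 was at 358, 279.9 and 475 in Emcn+/+ and at 328, 349 and 477 in Emcn-/-. In S100a10 the replicate 3 libraries of the genotypes were nearly equal, while in S100a6 the Emcn+/+ library was far above the Emcn-/- one. Anxa2 was at 337, 277 and 546 in Emcn+/+ and at 365, 314 and 542 in Emcn-/-. The differences of the 4 genes ran from -0.26 in S100a6 to 0.09 in Anxa2, and none passed (adjusted p from 0.91 to 0.988).

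Among the 8 surface, adhesion and matrix genes, Ccn1 and Ccn2 had the clearest lean towards Emcn-/-, though neither was called. Both encode matricellular proteins and are known targets of the Yap and Taz co-activators. Ccn1 was at 59.1, 73.2 and 110.3 normalised reads in Emcn+/+ and at 117, 132 and 148 in Emcn-/-, with every Emcn-/- library above every Emcn+/+ library. The difference was 0.74 ± 0.23 on the log2 scale, the largest among the 33 genes, with a 95% interval of 0.23 to 1.26 (adjusted p = 0.498). Ccn2 was at 279, 254 and 352 in Emcn+/+ and at 359, 337 and 427 in Emcn-/-, a difference of 0.35 ± 0.14 (adjusted p = 0.569) with overlap of 1 library on each side. Of the exonic bases of Ccn2, 23.2% are shared with Gm15270 on the opposite strand, which averaged 13.05 normalised reads. Ccn1 (chr3:145646976-145649981, GRCm38) lies 8.215 Mb from Emcn, and 8 of the 34 genes are on that chromosome. Whether sequence around the targeted allele differs between the genotypes was not tested. Tnfrsf12a, the receptor of the cytokine Tweak, was at 69.5, 82.5 and 111 in Emcn+/+ and at 108, 114 and 111 in Emcn-/- (0.36 ± 0.19, adjusted p = 0.652), the narrowest Emcn-/- values of the genes.

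Of the other surface genes, Lgals3, Emp1 and Cd109 had both replicate 3 libraries on top. Lgals3, a galectin of phagocytes and reactive glia, was at 37.3, 48.2 and 133 normalised reads in Emcn+/+ and at 44.8, 38.4 and 71.2 in Emcn-/-. Cd44, the hyaluronan receptor, was at 232, 204 and 325 in Emcn+/+ and at 189.9, 189.8 and 224 in Emcn-/-. Cd44 had the largest negative difference relative to its error after Lifr, -0.31 ± 0.17 (adjusted p = 0.675), and its groups overlapped, with Emcn+/+ replicate 1 above Emcn-/- replicate 3. Emp1, a membrane protein of reactive astrocytes, was at 125, 104 and 215 in Emcn+/+ and at 155, 88.2 and 180.2 in Emcn-/-. Cd109, a surface protein that binds transforming growth factor beta, was at 62.2, 63.0 and 115 in Emcn+/+ and at 75.9, 41.5 and 82.3 in Emcn-/-. In Emp1 and Cd109, Emcn-/- replicate 2 was the lowest library and both replicate 3 libraries were the highest. Tnc, the matrix protein tenascin C, did not share the pattern, with 345, 336 and 306 in Emcn+/+ and 386, 305 and 311 in Emcn-/-, a 1.26-fold range.

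The last 2 genes also stood outside the pattern. Hspb1, a small heat-shock protein, was at 76.7, 38.0 and 52.4 normalised reads in Emcn+/+ and at 51.6, 40.5 and 68.4 in Emcn-/-, highest in the library that also held lens transcripts. Small heat-shock proteins are abundant in lens, and the part of the lens RNA in the Hspb1 value was not tested. Sphk1, which makes the lipid mediator sphingosine 1-phosphate, was at 133, 152 and 134 in Emcn+/+ and at 143, 128 and 119 in Emcn-/-, a 1.27-fold range with a difference of -0.10 ± 0.13 (adjusted p = 0.851).

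**Figure D3:**
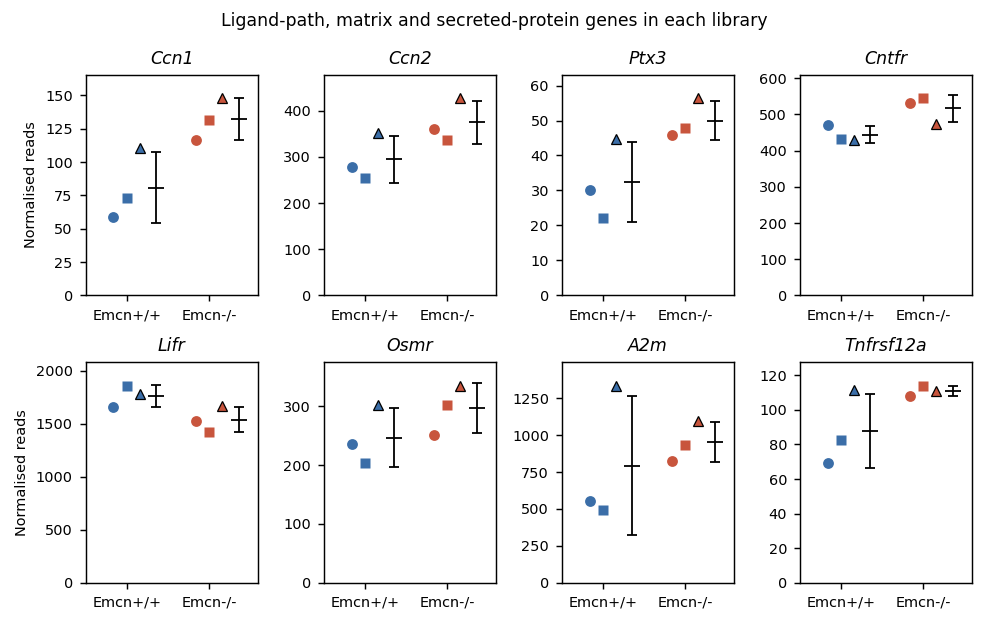
Normalised reads (vertical axis) in each library for 8 genes of the ligand path, matrix and secreted proteins; Emcn+/+ in blue, Emcn-/- in red, circles, squares and outlined triangles for replicates 1, 2 and 3, and black bars for the mean ± SD of 3 libraries. Ccn1, Ptx3 and Cntfr have all 3 Emcn-/- points above the Emcn+/+ points, and in A2m the Emcn+/+ replicate 3 library at 1337 is the highest of all.

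Relative to exonic length, the level of the genes covered a wide range. Mean normalised reads per kilobase of exon were 963 for Vim, 435 for Gfap, 360.4 for Cp, 314 for S100a11 and 312 for S100a10, followed by 217 for Fgf2. Receptor chains were at 188 for Il6st, 173 for Cntfr and 154 for Lifr, but at 22.4 for Osmr. The ligand Lif was at 3.87 and Aspg, the lowest, at 0.52. S100a11 and S100a10, neighbours in this order, did not differ beyond the spread between libraries, and other neighbours were not compared. Poly-A reads per kilobase are only a rough scale between genes.

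Across the 33 genes, the genotypes were completely separated in 3. The Emcn-/- libraries were all above the Emcn+/+ libraries in these 3 genes (Cntfr, Ccn1 and Ptx3), or 9.09%, against 7.48% of tested genes. They were all below in 0 genes, against 6.94%.

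The picture depended on Emcn+/+ replicate 3. Without it, 28 of the 33 differences were positive, with a median of 0.37 on the log2 scale against 0.01 for all genes, and 2 genes were called higher in Emcn-/-, A2m and Ccn1. That is 6.06% of the 33, against 0.228% of tested genes, and 0 were called lower, against 0.677%. The A2m difference was then 0.85 ± 0.11 (limma adjusted p = 0.0157) and the Ccn1 difference 0.99 ± 0.18 (adjusted p = 0.0456). Gfap was then at 0.60 ± 0.28 (adjusted p = 0.303) and Socs3 at 0.55 ± 0.33 (adjusted p = 0.43), neither of them called. That fit sets 2 Emcn+/+ libraries of the lower title numbers against 3 Emcn-/- libraries that include the high replicate 3, so the title series and the genotype are unbalanced in it.

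With only the 4 libraries titled 144 to 148, which leaves both replicate 3 libraries out, 23 of 33 differences were positive, the median was 0.13, and 1 gene, A2m, was called higher (0.75 ± 0.09, adjusted p = 0.0353). That is 3.03% against 0.048% of tested genes, with 0 called lower against 0.204%. Ccn1 was at 0.90 ± 0.21 in these 4 libraries (adjusted p = 0.127). Gfap differed by 0.24 ± 0.10 (adjusted p = 0.331), Stat3 by 0.01 ± 0.08 and Serpina3n by -0.11 ± 0.34. The median SD within genotype of the 33 genes was 0.17 there, against 0.44 over all 6 libraries. Leaving out both replicate 3 libraries removes their height by construction, and the median SD of all tested genes in this subset is not given. With the title series as a block, 0 of the 33 were called, against 0.00599% of tested genes, and 8 (24.2%) had an unadjusted p under 0.05, against 12.5%.

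**Figure D4:**
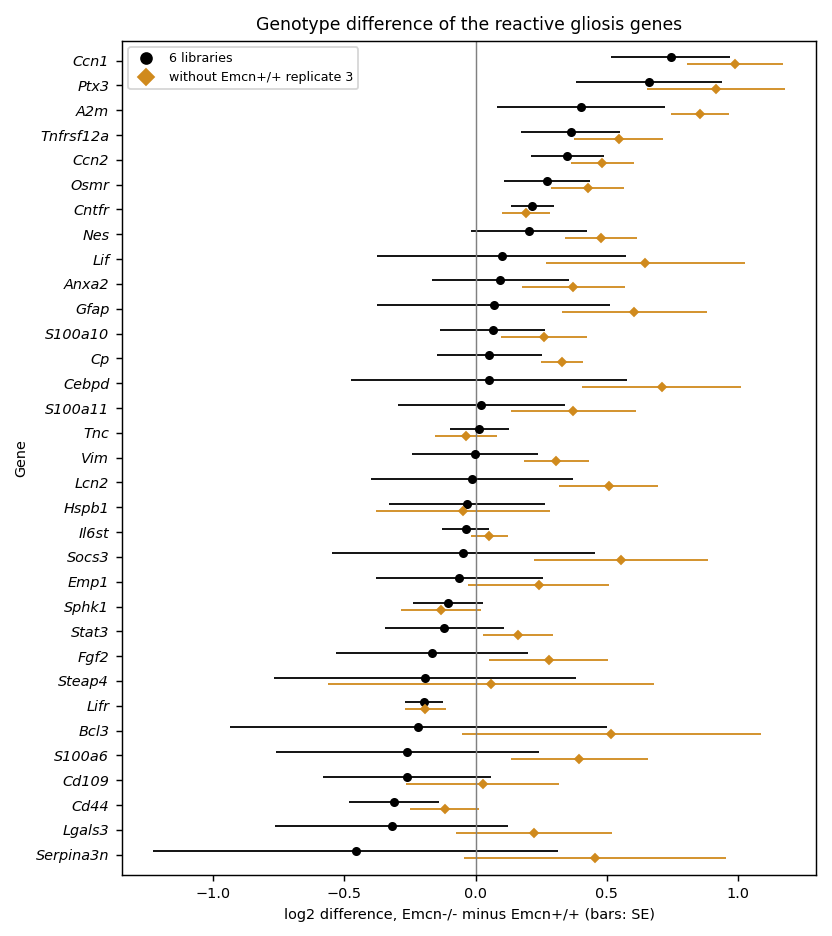
log2 difference, Emcn-/- minus Emcn+/+ (horizontal axis, bars ± SE), of the 33 tested genes, ordered by the value over 6 libraries (black circles), with the value without Emcn+/+ replicate 3 as orange diamonds. Over 6 libraries 16 differences are positive, and without that library 28 are, with Lifr, Cd44, Sphk1, Hspb1 and Tnc on the negative side.

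Other genes of the same pathways showed no called difference either. Of 27 other genes of the gp130, Jak and Stat path, 26 were found and 23 tested, of which 11 had a positive and 12 a negative difference, with 0 called and a median of -0.00. The smallest p belonged to Ctf1, the gp130 ligand cardiotrophin 1, at 33.2, 20.4 and 19.7 normalised reads in Emcn+/+ and 40.9, 44.6 and 49.0 in Emcn-/- (0.89 ± 0.27, adjusted p = 0.479). Next came Socs7, a member of the Socs family, at -0.09 ± 0.05 (adjusted p = 0.669). The median height of replicate 3 over this list was 0.11 in Emcn+/+ and 0.03 in Emcn-/-, and both replicate 3 libraries were on top for 6 of 23 genes (26.1%, against 12.8% of all tested genes). Without Emcn+/+ replicate 3 the median difference of the list was 0.04.

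In a list of 21 other reactive astrocyte genes, 8 of the 17 tested (47.1%) had both replicate 3 libraries on top, the median SD was 0.40, and 8 differences were positive and 9 negative with 0 called. Timp1, an inhibitor of matrix metalloproteinases, was at 10.4, 8.34 and 64.4 normalised reads in Emcn+/+ and at 13.6, 7.26 and 31.4 in Emcn-/-. Several of these genes are interferon-inducible and were high chiefly in Emcn+/+ replicate 3, the library with the high interferon-response sum, such as the GTPase gene Iigp1 at 273 against 9.27 to 24.0 in the other 5 and the class I gene H2-T23 at 324 against 66.7 to 103.5. The part of that response in the list was not tested. The smallest p values were those of B3gnt5, a glycosyltransferase (-0.66 ± 0.19, adjusted p = 0.476), and Tm4sf1, a tetraspanin-like surface protein (0.42 ± 0.15, adjusted p = 0.522). Without Emcn+/+ replicate 3 the median difference of this list was 0.24, against -0.03 over all 6 libraries. Over 20 tested genes of resting Müller glia, the excess of replicate 3 had a median of -0.09 in Emcn+/+ and -0.11 in Emcn-/-, and 4 of the 20 (Slc1a3, Sox9, Crym and Cd9) had both replicate 3 libraries on top. Of these 20, 14 differences were positive and 6 negative, with 0 called, and the smallest p was that of Apoe, the lipid carrier (0.37 ± 0.07, adjusted p = 0.374), followed by the transporter gene Abca8a (-0.25 ± 0.07, adjusted p = 0.451). Without Emcn+/+ replicate 3, 1 of the 20 was called, Abca8a, which was lower in Emcn-/- (-0.32 ± 0.06, limma adjusted p = 0.0426), against 0.677% of tested genes called lower in that fit.

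Markers of the cells that could carry these transcripts were summed in each library. The 8 Müller glia markers summed to 63489, 57351 and 49971 normalised reads in Emcn+/+ and to 67735, 66292 and 57031 in Emcn-/-, lowest in replicate 3 of each genotype. Most of that sum was Glul, and 3 of the 8 markers, Slc1a3, Sox9 and Crym, instead had both replicate 3 libraries on top. The 8 retinal astrocyte markers, most of whose reads were Aldoc, summed to 9131, 7943 and 8444 in Emcn+/+ and to 10103, 9550.5 and 10435 in Emcn-/-, and 1 of the 8 had both replicate 3 libraries on top. The part of the glial cells' number in the height of replicate 3 was not tested. The 12 microglia markers summed to 2107, 1942 and 3036 in Emcn+/+ and to 2094, 2174 and 2481 in Emcn-/-, and the 8 macrophage markers to 478, 462 and 668 and to 468, 454 and 529. Single microglia markers were mixed, with both replicate 3 libraries on top for 4 of 12, and the same held for 3 of the 4 tested macrophage markers. Since microglia and macrophages express several of the genes, Lgals3 and Cd44 among them, these sums stand beside the height of replicate 3, and their part in it was not tested. Interferon-response genes were far higher in Emcn+/+ replicate 3 than in any other library (Ifit1 at 868 normalised reads, against 23.9 to 35.1). Both replicate 3 libraries were on top for 9 of the 16 tested genes of that list. In Emcn-/- replicate 3 the interferon-response genes summed to 2356, against 2015 to 2126 in replicates 1 and 2 of both genotypes. The part of the interferon response in the height of replicate 3 was not tested.

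Several marker lists were higher in every Emcn-/- library than in any Emcn+/+ library, the retinal astrocyte sum among them. Among the 8 astrocyte markers only Aldoc, which made up most of that sum, was itself split, at 5517 to 6276 and 6533 to 7122 normalised reads. The other astrocyte markers overlapped between the genotypes, and 2 of the 8 differences were negative. The 12 retinal pigment epithelium markers summed to 8177, 3890.0 and 6449 normalised reads in Emcn+/+ and to 9132, 12708 and 12692 in Emcn-/-, with 11 of 11 tested differences positive. The 8 ciliary body and iris markers summed to 3411 to 5754 and to 6518 to 7643, with 8 of 8 positive. The rod photoreceptor markers split likewise, with 12 of 12 differences positive and a median of 0.10 on the log2 scale. Ccn1, Ptx3 and Cntfr were split in the same way, and the part of these cells in those genes was not tested. The 10 endothelial markers summed to 7175 to 7784 in Emcn+/+ and to 4962 to 7297 in Emcn-/-, highest in replicate 3 of each genotype. The 10 pericyte and smooth muscle markers summed to 4560.4 to 4856 and 3575 to 6041. Both replicate 3 libraries were on top for 6 of the 10 endothelial markers and for 3 of 6 tested fibroblast and meninges markers. The same held for 1 of 9 tested pericyte and smooth muscle markers. The part of these cells in the height of replicate 3 was not tested.

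**Figure D5:**
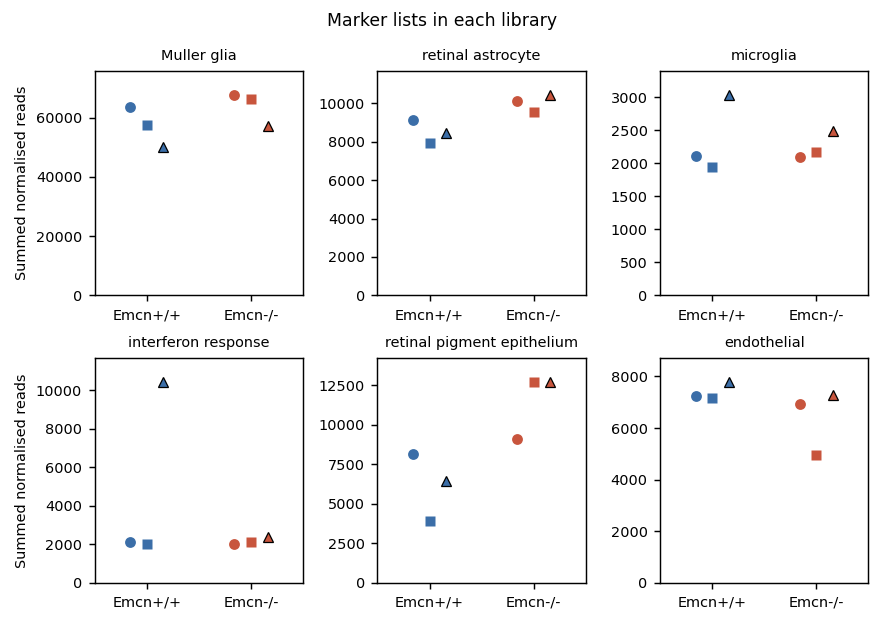
Summed normalised reads (vertical axis) of 6 marker lists in each library, with Emcn+/+ in blue, Emcn-/- in red and circles, squares and outlined triangles for replicates 1, 2 and 3. The microglia sum is highest in both triangles (3036 and 2481). The interferon-response sum is far above the rest in the Emcn+/+ triangle (10438), with the Emcn-/- triangle next (2356). The Müller glia sum is lowest in the triangle of each genotype.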

How the data were processed

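For each gene and library the authors deposited 1 normalised read signal. The genome build was GRCm38, per the submitters' processing notes, and the aligner, counter and annotation were not given in the sources used here. Its values were whole multiples of 1 step per library (100% at a tolerance of 0.001 reads), so they are read counts divided by 1 factor, and reads were recovered. Values are not scaled to gene length. The labels' protocol names both a strand-marking and an unmarked option, so strand is unknown and overlapping genes are uncertain.

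Genotype was tested with limma 3.58.1 in R 4.3.3, using its trend option on log2(value + 1) without other covariates; p-values were adjusted by Benjamini-Hochberg over the genes kept by edgeR's expression filter (minimum count 10). Fold changes on this scale understate those of low genes. Alternatives were TMM scaling, no filter, a pseudocount of 5, edgeR 4.0.16, DESeq2 1.42.0, the title series as a block, the 4 libraries titled 144 to 148, and each library left out. Replicate numbers follow sample order and pair nothing. The scripts were tested on simulated data. Positions and exonic lengths are from GENCODE M21 (GRCm38), which held 27390 of the 28627 gene IDs. Promoters are from RefSeq.

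The genes and lists were chosen with earlier results of these data known. Every one of the 34 genes is named. From each pathway list the called genes, or otherwise the 2 with the smallest p, are named, and marker lists are given by sums. Timp1, Iigp1, H2-T23 and single markers were chosen after their values were seen.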

Additional observations from a re-analysis of the deposited data

How the results depend on the processing

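TMM scaling, no expression filter and a pseudocount of 5 moved no count or median of the gliosis genes past its limit: 0 of them were called and 16 differences were positive in each. Over all genes DESeq2 called 82 and the libraries titled 144 to 148 called 42, against 1. Of the gliosis genes, the latter called 1. Leaving out 1 library in turn gave 0 to 151 calls over all genes, 0 to 2 among the gliosis genes, 9 to 28 positive differences, a median difference of -0.16 to 0.37 and a median SD of 0.24 to 0.51. No gene at all, Emcn included, was called when either of the first 2 Emcn+/+ libraries or the first Emcn-/- library was left out. The most calls and positive differences came without Emcn+/+ replicate 3; without Emcn+/+ replicate 2 there were 9 positive, and leaving out Emcn-/- replicate 2 or 3 gave 25 or 10. The median SD was 0.22 with the title series as a block and 0.17 in the libraries titled 144 to 148, which by construction remove the height of replicate 3. No paired analysis was possible because the replicate numbers come from the sample order.

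Some differences changed sign, and not only small ones. In edgeR they were Gfap -0.052, Cebpd -0.18, Lif -0.090, S100a11 -0.028, Steap4 0.075 and Cp -0.0051, in DESeq2 Gfap -0.053, Cebpd -0.18, Lif -0.10, S100a11 -0.032, Steap4 0.059 and Cp -0.0038, and in the libraries titled 144 to 148 Vim 0.16, Lcn2 0.55, Fgf2 0.060, Stat3 0.0071, Socs3 0.21, S100a6 0.081 and Emp1 0.034; the cause was not tested. Leaving out 1 library gave ranges through 0 for Gfap -0.30 to 0.60, Vim -0.21 to 0.31, Lcn2 -0.29 to 0.51, Serpina3n -1.23 to 0.46, Fgf2 -0.55 to 0.28, Stat3 -0.32 to 0.16, Socs3 -0.48 to 0.55, Cebpd -0.42 to 0.71, Lif -0.21 to 0.65, Il6st -0.11 to 0.052, Bcl3 -0.87 to 0.52, S100a6 -0.63 to 0.40, S100a10 -0.12 to 0.26, S100a11 -0.26 to 0.37, Lgals3 -0.68 to 0.22, Hspb1 -0.27 to 0.22, Steap4 -0.70 to 0.46, Tnc -0.094 to 0.075, Cp -0.11 to 0.33, Emp1 -0.28 to 0.24, Cd109 -0.44 to 0.044 and Anxa2 -0.13 to 0.37. Of these genes, Serpina3n (-0.46) and Lgals3 (-0.32) had the most negative differences of the 33 over all 6 libraries. The depth limits Aspg, Steap4 and Lif, the genes with the fewest reads.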
